A study of Mus musculus with 88 samples.

Results

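Tgm2 and Cytip are 2 genes, read by 4 probes, among the 10518 mouse genes to which 13260 array probes could be averaged. They were chosen by their ratios to medium, which stayed high while RAW 264.7 cells were exposed to isoproterenol (ISO) or prostaglandin E2 (PGE2). The choice set no threshold, so there are no members just inside or outside one. RAW 264.7 is an established mouse macrophage-like line, and the study used this 1 line throughout. Cells received 100 ng/ml lipopolysaccharide (LPS) with 50 nM ISO, the same LPS with 10 µM PGE2, LPS alone, ISO alone, or PGE2 alone, each for 1, 2 or 4 h. Cells kept in culture medium for the same time were the control on every array. The labels name 100 pM lipid binding protein beside LPS alone and do not name it for the combinations, so its presence and the absence of the added ligand cannot be told apart in a combination set against LPS. Each of the 15 groups holds 3 sets (2 for PGE2 at 1 h), and a set is a pair of 2-colour arrays with the dyes exchanged. The labels do not state whether different sets are different cultures, and the p-values below rest on set-to-set spread that could be partly or wholly technical.

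All values are log2 ratios of treated cells over medium, where 1 is a doubling and 0 is no difference. The deposited table does not state which channel is the numerator. It was read as Cy5 over Cy3, and the direction is therefore likely rather than stated: on 18 of 18 LPS arrays the median of 19 measured genes known to rise with LPS was then above 0, at 0.94 to 3.03. A ratio gives no absolute level, and fewer cells and less RNA per cell cannot be told apart in it. Between 10.95% and 45.67% of the probes of an array are listed at exactly 0 (median 28.3%), and no source used here says whether such a 0 is a measurement. The 2 arrays of a pair correlated across genes at 0.20 to 0.85 in groups with LPS, and at -0.58 to 0.32 in the 17 pairs without it, of which 10 were below 0. Of the macrophage markers, 7 were measured. Adgre1, Csf1r, Cd68 and Fcgr1 had a value other than 0 on all 88 arrays, whereas Lyz2 had one on only 6.

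Tgm2 encodes transglutaminase 2, an enzyme that joins glutamine to lysine side chains of proteins and that also binds GTP. Macrophages use it at the cell surface, together with integrins, when they take up apoptotic cells, and retinoids and transforming growth factor beta are known inducers. Cytip encodes an adaptor protein that binds cytohesin-1, an exchange factor for small ARF GTPases, and holds it away from the membrane. Since cytohesin-1 favours adhesion through the integrin LFA-1, Cytip is known as a brake on leukocyte adhesion. ISO acts on beta-adrenergic receptors and PGE2 on prostanoid receptors, both able to raise cyclic AMP, and LPS acts through Toll-like receptor signalling.

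In the RefSeq annotation of GRCm38.p6, Tgm2 (Entrez 21817) spans chr2:158116405-158146392 and Cytip (Entrez 227929) spans chr2:58129139-58195549. RefSeq's promoter table holds an entry for Cytip and none for Tgm2, so only the sequence around that Cytip start is shown. It is chr2:58160073-58160372 on the minus strand, written 5′ to 3′, with the 50 bases after the start in capitals.
Cytip: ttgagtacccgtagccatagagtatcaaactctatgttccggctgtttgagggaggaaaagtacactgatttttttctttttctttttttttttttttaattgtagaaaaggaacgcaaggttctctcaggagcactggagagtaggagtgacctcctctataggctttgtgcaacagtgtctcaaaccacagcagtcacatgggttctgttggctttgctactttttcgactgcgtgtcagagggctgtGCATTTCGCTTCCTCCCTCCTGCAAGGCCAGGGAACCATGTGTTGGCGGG
Searched on both strands, these 300 bases held 0 matches to the cyclic AMP response element TGACGTCA and 0 to TGACG, the shorter letters contained in it, which 1.79% and 20.81% of the 32851 promoters in the table held. They also held 0 matches to the AP-1 letters TGANTCA (in 7.81% of promoters) and to the NF-kB-like letters GGGNNTTTC (4.36%) and GGGNNTTCC (5.82%). These letters are not in this window, and nothing about the factors follows from that. The window lies inside the Cytip span given above, and the 5′ end of that span on the minus strand, at 58195549, was not searched.

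Tgm2 was above medium in every set of every group, those of the ligands that chose it included. With ISO its 3 sets were at 1.01, 1.15 and 1.45 at 1 h, at 1.74, 1.42 and 2.03 at 2 h, and at 1.55, 2.18 and 2.31 at 4 h. With PGE2 they were at 0.45 and 1.10 at 1 h, at 0.99, 1.47 and 1.72 at 2 h, and at 1.56, 2.02 and 1.97 at 4 h. The means after ISO were 1.20 ± 0.23, 1.73 ± 0.31 and 2.01 ± 0.41 at 1, 2 and 4 h, the last a 4.04-fold ratio, and after PGE2 0.77 ± 0.46, 1.39 ± 0.37 and 1.85 ± 0.25 (SD, n = 3, and n = 2 for PGE2 at 1 h). The mean was thus higher at each later time, with sets of neighbouring times overlapping. Between 1 and 2 h of ISO the overlap rests on set 2 at 2 h, where probe 10603, 1 of the 2 Tgm2 probes, was at 0 on 1 array. With zeros read as missing, that set was at 1.88, above all 1 h sets of ISO. ISO minus PGE2 within a set averaged 0.31, 0.34 and 0.16 at 1, 2 and 4 h, and at 2 and 4 h 1 of the 3 sets went the other way.

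Cytip also stood above medium in all 9 sets with ISO and all 8 with PGE2. With ISO its sets were at 1.39, 0.45 and 1.33 at 1 h, at 1.59, 1.26 and 1.96 at 2 h, and at 0.94, 1.39 and 1.17 at 4 h. With PGE2 they were at 1.05 and 0.89 at 1 h, at 1.09, 0.91 and 1.33 at 2 h, and at 0.45, 1.05 and 0.79 at 4 h. The means after ISO were 1.06 ± 0.53, 1.61 ± 0.35 and 1.17 ± 0.23 and after PGE2 0.97 ± 0.12, 1.11 ± 0.21 and 0.76 ± 0.30, so that its highest mean was at 2 h with both ligands rather than at 4 h as for Tgm2. ISO lay above PGE2 in 3 of 3 sets at 2 h, by 0.50 ± 0.14, and in 3 of 3 sets at 4 h, by 0.40 ± 0.08. These ISO and PGE2 values are those on which the genes were picked and carry no test. Over all genes, 0.903%, 1.71% and 3.36% were called (limma, adjusted p under 0.05, either direction) against medium with ISO and 0.323%, 0.456% and 1.14% with PGE2 at 1, 2 and 4 h.

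**Figure D1:**
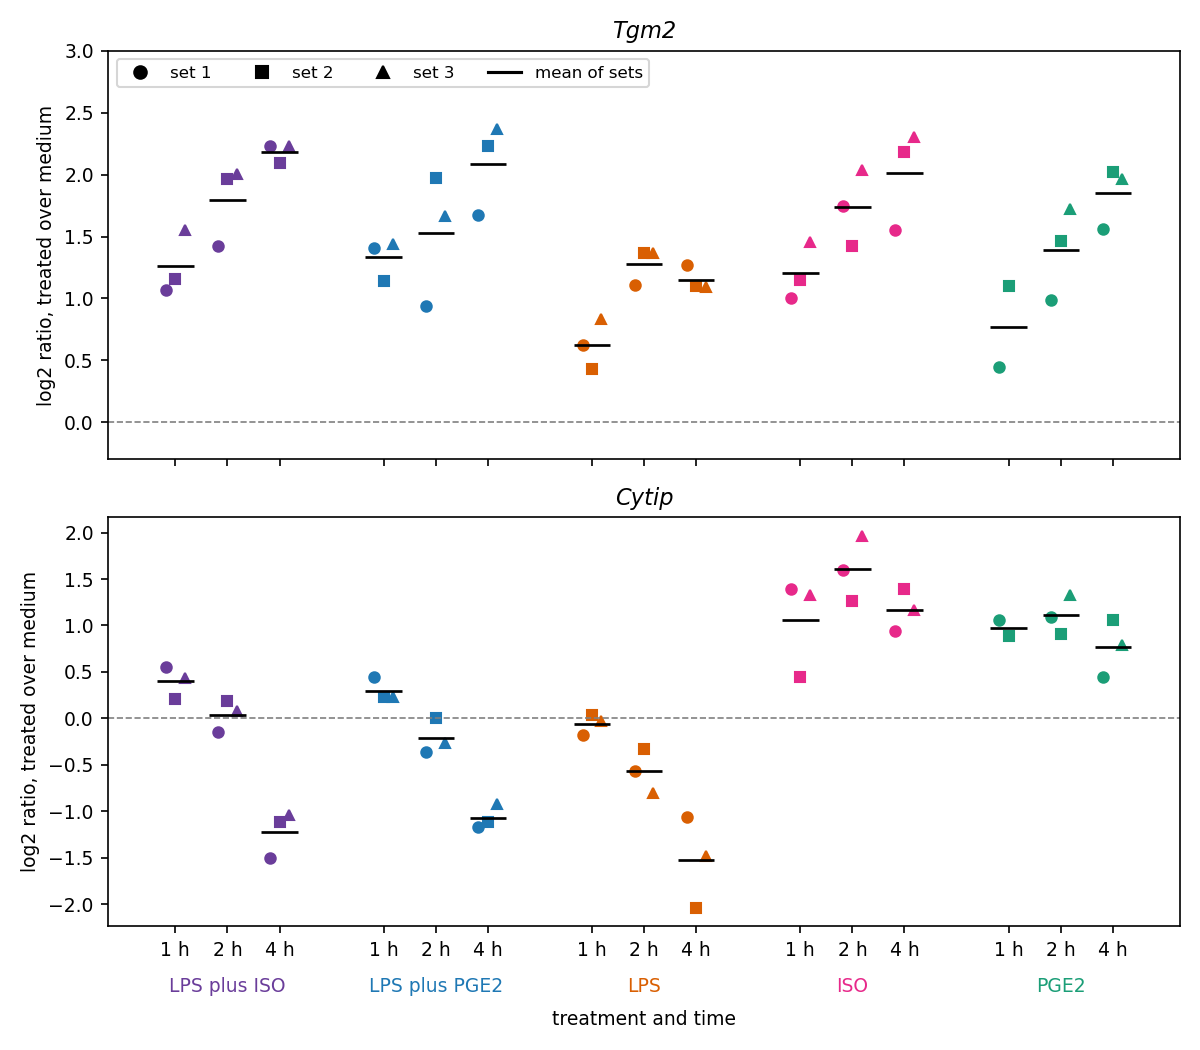
Log2 ratio of treated cells over medium for Tgm2 (top) and Cytip (bottom) in each set, by treatment and time in hours; symbols are set numbers, bars are means of sets and the dashed line is no difference from medium. Tgm2 lies above 0 in every set, between 0.43 and 2.36, whereas Cytip lies above 0 with ISO and PGE2 alone and below it with LPS at 4 h, alone or combined.

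LPS, whose arrays did not enter the choice of the genes, raised Tgm2 and lowered Cytip. Tgm2 in the 3 LPS sets was at 0.62, 0.43 and 0.83 at 1 h, at 1.11, 1.36 and 1.36 at 2 h, and at 1.27, 1.10 and 1.09 at 4 h. All sets at 2 and 4 h lay above all sets at 1 h. How many of all genes were separated in this way was not counted. The means of 0.63 ± 0.20, 1.28 ± 0.14 and 1.15 ± 0.10 (SD, n = 3) correspond to 1.54-, 2.43- and 2.22-fold, with limma adjusted p of 0.0126, 5.66e-07 and 1e-06. Called higher with LPS were 4.64%, 8.88% and 14.3% of all genes at 1, 2 and 4 h. At 1 h the call was lost when set 1 or set 3 was left out, with adjusted p up to 0.121, and with scaled arrays (0.184), treated RNA in Cy3 only (0.243) or its own group alone in the fit (0.309). For a difference in Tgm2 between the times of LPS, the F test gave an adjusted p of 0.1, against 0.0171 with a block for the set number (20.4% of genes called) and 0.0145 with that block taken within each time (29.4% called).

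Cytip in the LPS sets was at -0.18, 0.04 and -0.03 at 1 h, at -0.57, -0.33 and -0.80 at 2 h, and at -1.06, -2.04 and -1.48 at 4 h. The 3 times did not overlap, and the ratio was lower at each later time. The share of all genes with such a separation was not counted. Cytip was near medium at 1 h (-0.06 ± 0.11, adjusted p = 0.944), fell by 0.57 ± 0.24 at 2 h (adjusted p = 0.00802) and fell by 1.53 ± 0.49 at 4 h, which is 2.88-fold lower (adjusted p = 6.76e-10). Called lower with LPS were 4.84%, 7.01% and 16.4% of all genes. Leaving out set 1 or set 3 ended the call at 2 h (adjusted p up to 0.137), and no single set decided that at 4 h, although fitted on its own group, with 3 sets to estimate the spread, that call was lost too (adjusted p = 0.0735). The difference between times was called (4 h minus 1 h, -1.47; F test, adjusted p = 1.2e-05), as it was for 18.5% of all genes.

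With LPS and a second ligand together, Tgm2 was raised at all times. In LPS plus ISO its sets were at 1.07, 1.16 and 1.56 at 1 h, at 1.42, 1.97 and 2.00 at 2 h, and at 2.23, 2.10 and 2.23 at 4 h. In LPS plus PGE2 they were at 1.41, 1.14 and 1.44 at 1 h, at 0.94, 1.97 and 1.66 at 2 h, and at 1.67, 2.23 and 2.36 at 4 h. With zeros kept, the sets of LPS plus ISO at 4 h were the tightest of all Tgm2 groups, at 2.19 ± 0.08. This mean is 4.55-fold over medium. By either probe alone the SD of these sets was larger, at 0.28 and 0.25. Reading zeros as missing brought the LPS plus ISO sets at 2 h closer together than those at 4 h, at 1.98, 1.97 and 2.00. Limma adjusted p against medium was between 1.46e-12 and 2.08e-06 in LPS plus ISO, where 4.15%, 7.70% and 14.4% of all genes were called higher. It was between 4.1e-12 and 7.63e-07 in LPS plus PGE2, where 4.70%, 7.49% and 15.2% were. In the fit over all groups the ratio differed between times in both combinations, with 4 h minus 1 h at 0.93 in LPS plus ISO (F test, adjusted p = 0.0143, 17.6% of genes called) and at 0.76 in LPS plus PGE2 (adjusted p = 0.0482, 17.8% called). The call in LPS plus ISO was lost when set 1 or 2 at 1 h was left out, with scaled arrays, with treated RNA in Cy3 only, with only its own groups fitted and with probe 10603 alone (adjusted p up to 0.377). That in LPS plus PGE2 was lost on leaving out any of 5 of its 9 sets, with scaled arrays, with either dye orientation alone, with only its own groups fitted and with probe 10603 alone (adjusted p up to 0.402), and fitted on their own groups the 1 and 2 h ratios of both combinations to medium were not called either (adjusted p from 0.0857 to 0.275).

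Set against LPS alone, Tgm2 averaged over its 2 probes was about 1 log2 unit higher in both combinations at 4 h. By probe 184 alone, measured on every array, the difference was 0.73 with ISO (limma adjusted p = 0.27) and 0.81 with PGE2 (0.144). By probe 10603 alone it was 1.34 and 1.06, also without a call. Over both probes, LPS plus ISO minus LPS was 0.44, 0.73 and 0.72 in the 3 sets at 1 h, 0.31, 0.60 and 0.64 at 2 h, and 0.96, 1.00 and 1.14 at 4 h. Every set of LPS plus ISO lay above every set of LPS at each of the 3 times, which held for 3.55%, 3.52% and 2.72% of all genes at 1, 2 and 4 h. At 4 h the mean difference of 1.03 (95% interval 0.55 to 1.51) is 2.05-fold, and it missed the threshold over all genes (adjusted p = 0.0857, 0.0951% of genes called). With set number as a block it passed (adjusted p = 0.0058, 0.171% of genes called), and likewise with the block within time (0.00441, 0.504% called). Probe 10603 was at 0 on 1 of the 2 LPS arrays of set 1 at 4 h. With zeros read as missing, that LPS set was at 1.70 rather than 1.27, so its difference was smaller than printed above. The mean difference at 4 h was then 0.89 (limma adjusted p = 0.051).

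For PGE2, the difference from LPS was 0.79, 0.71 and 0.61 at 1 h, -0.17, 0.61 and 0.30 at 2 h, and 0.40, 1.13 and 1.28 at 4 h. Set 1 was the lowest at 2 and 4 h, and in it probe 10603, 1 of the 2 Tgm2 probes, was at 0 on both LPS plus PGE2 arrays at 2 h and on 1 array each of LPS plus PGE2 and LPS at 4 h. All LPS plus PGE2 sets lay above all LPS sets at 1 and 4 h, as for 3.07% and 3.04% of all genes, and not at 2 h. The 4 h difference of 0.94 (95% interval 0.46 to 1.42) had an adjusted p of 0.256 (0.0285% of genes called), against 0.0261 with the set block (0.0951% called), 0.0148 with the block within time (0.475% called) and 0.0157 with zeros read as missing. At 1 and 2 h neither combination differed from LPS past the threshold (adjusted p from 0.814 to 1). No difference in Tgm2 between LPS plus ISO and LPS plus PGE2 passed the test (adjusted p = 1 at each time), at -0.07 (95% interval -0.55 to 0.41), 0.27 (-0.21 to 0.75) and 0.10 (-0.38 to 0.58).

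**Figure D2:**
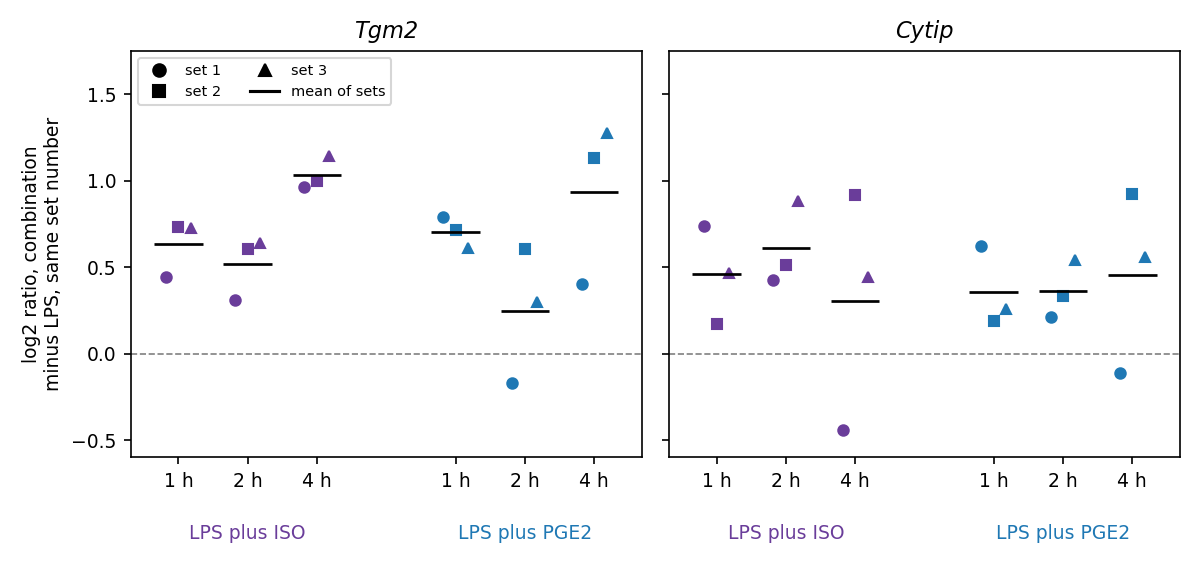
Difference in log2 ratio between each combination and LPS alone in the set of the same number, at 1, 2 and 4 h, for Tgm2 (left) and Cytip (right); bars are means of 3 sets. The 3 Tgm2 differences of LPS plus ISO at 4 h lie between 0.96 and 1.14, whereas the Cytip differences at 4 h run from -0.44 to 0.92. Zeros were kept, and in LPS set 1 at 4 h 1 probe of each gene was at 0 on 1 array.

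In both combinations, Cytip was not called against medium at 1 or 2 h and was called below it at 4 h. In LPS plus ISO its sets were at 0.56, 0.21 and 0.44 at 1 h, at -0.15, 0.18 and 0.08 at 2 h, and at -1.51, -1.12 and -1.04 at 4 h. In LPS plus PGE2 they were at 0.44, 0.23 and 0.23 at 1 h, at -0.36, 0.0035 and -0.26 at 2 h, and at -1.17, -1.11 and -0.92 at 4 h. All 6 combination sets were thus above medium at 1 h and below it at 4 h. Only the 4 h values passed the test against medium: -1.22 ± 0.25 in LPS plus ISO (2.33-fold lower, adjusted p = 7.26e-08, 15.6% of genes called lower) and -1.07 ± 0.13 in LPS plus PGE2 (2.10-fold lower, adjusted p = 7.87e-07, 16.5% called lower). Fitted on its own group, LPS plus ISO at 4 h was not called (adjusted p = 0.0645). At 1 h the means were 0.40 ± 0.18 (adjusted p = 0.119) and 0.30 ± 0.13 (adjusted p = 0.291). From 1 to 4 h the ratio changed by -1.62 in LPS plus ISO (F test, adjusted p = 1.42e-06) and by -1.37 in LPS plus PGE2 (adjusted p = 4.41e-05).

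Against LPS alone the mean Cytip difference was positive in both combinations at all times and passed no test. LPS plus ISO minus LPS was 0.74, 0.17 and 0.47 at 1 h, 0.43, 0.51 and 0.88 at 2 h, and -0.44, 0.92 and 0.44 at 4 h. LPS plus PGE2 minus LPS was 0.62, 0.19 and 0.26 at 1 h, 0.21, 0.33 and 0.54 at 2 h, and -0.11, 0.92 and 0.56 at 4 h. Over both probes, every combination set lay above every LPS set at 1 h, and for LPS plus ISO also at 2 h. The same held at 1 h for 3.55% (LPS plus ISO) and 3.07% (LPS plus PGE2) of all genes, and at 2 h for 3.52% (LPS plus ISO). Both negative values come from set 1 at 4 h, in which probe 15212 was at 0 on 1 of the 2 LPS arrays. Set 3 of LPS at 4 h also held such a zero, and its differences were positive. With zeros read as missing, set 1 was at -1.40 in LPS, -1.51 in LPS plus ISO and -1.17 in LPS plus PGE2. The LPS plus ISO difference in set 1 thus stayed negative. Probe 2829, measured on every array, gave -1.61, -1.66 and -1.58 in the LPS sets at 4 h, against -1.34, -0.91 and -0.81 in LPS plus ISO and -1.20, -0.87 and -0.70 in LPS plus PGE2, with all sets of both combinations above all LPS sets, as was so for 2.72% and 3.04% of all genes over all their probes. On that probe alone the 4 h differences were 0.60 (adjusted p = 0.903) and 0.69 (adjusted p = 0.525). The widest interval away from 0 over both probes was that of LPS plus ISO at 2 h, with a mean of 0.61 (95% interval 0.17 to 1.05, adjusted p = 1; no gene was called there, and 308 of 10518 had an unadjusted limma p under 0.05). No difference in Cytip between the combinations passed the test (adjusted p = 1 at each time), at 0.10 (95% interval -0.34 to 0.54), 0.25 (-0.19 to 0.69) and -0.15 (-0.59 to 0.29).

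The genes therefore differed in which single treatment the combinations lay near. LPS plus ISO minus ISO averaged 0.06, 0.06 and 0.17 for Tgm2 at 1, 2 and 4 h, against -0.65, -1.57 and -2.39 for Cytip, where 9 of 9 sets were below 0. LPS plus PGE2 minus PGE2 averaged 0.50, 0.13 and 0.24 for Tgm2 and -0.64, -1.32 and -1.83 for Cytip, again with all 8 Cytip sets below 0. Both combinations also lay below the sum of the log2 ratios of their single treatments. For Tgm2 the shortfall was -0.57, -1.22 and -0.98 with ISO and -0.07, -1.15 and -0.91 with PGE2. For Cytip it was -0.60, -0.999 and -0.86 with ISO and -0.62, -0.75 and -0.31 with PGE2. These differences use the arrays that chose the genes and carry no test.

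**Figure D3:**
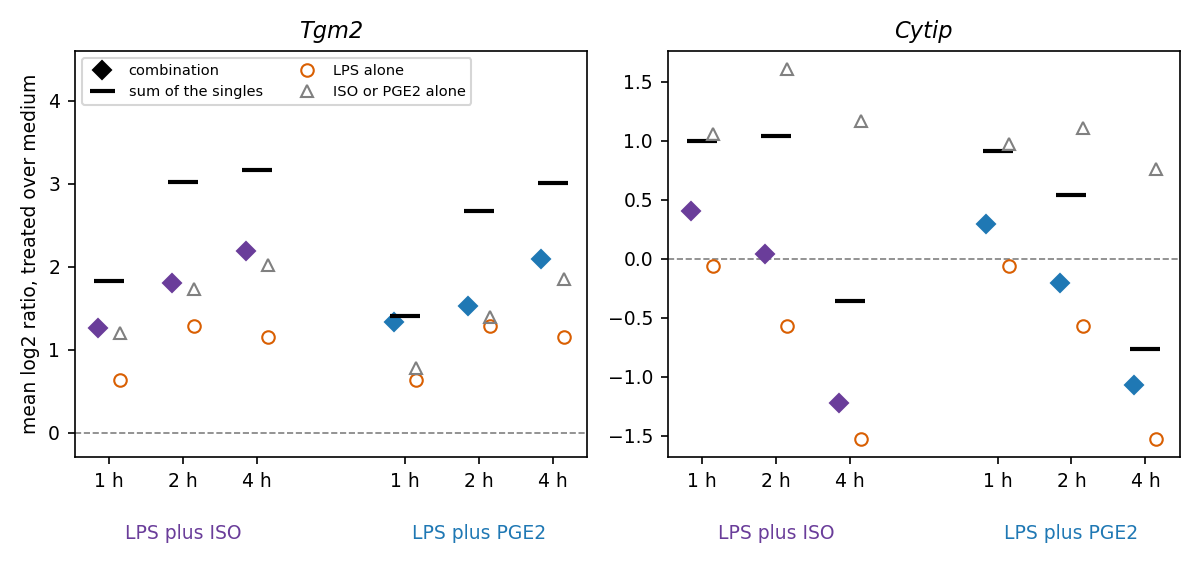
Mean log2 ratio over medium of each combination (diamonds), the sum of its single treatments (bars), LPS alone (circles) and ISO or PGE2 alone (triangles) at 1, 2 and 4 h, for Tgm2 (left) and Cytip (right). All 12 diamonds lie below their bars; Tgm2 combinations lie close to or above ISO or PGE2 alone, and Cytip combinations at 4 h lie close to LPS alone.

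Ordered by mean ratio, Tgm2 was highest in LPS plus ISO at 4 h (2.19) and lowest in LPS at 1 h (0.63). The 4 h groups of all treatments other than LPS alone held the first 4 places, and all 14 neighbouring pairs in the order overlapped in their sets. Cytip was highest in ISO at 2 h (1.61) and lowest in LPS at 4 h (-1.53). The 6 groups without LPS held its first 6 places. Of its 14 neighbouring pairs 12 overlapped, and those that did not were LPS plus PGE2 at 1 h above LPS plus ISO at 2 h, and LPS at 2 h above LPS plus PGE2 at 4 h.

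The probes of each gene mostly went the same way but not equally far. Where both were measured they had the same sign on 78 of 82 arrays for Tgm2 and on 80 of 85 for Cytip, and for Cytip in LPS at 1 h their means had opposite signs, at 0.05 by probe 2829 and -0.17 by probe 15212. For Tgm2, probe 184 was above 0 on 88 of 88 arrays, and probe 10603 was above 0 on 78, below on 4 and at 0 on 6. Probe 184 gave the higher mean in 14 of 15 groups, by a median of 0.38 over sets, and with probe 10603 alone the rise with LPS was not called at 1 h (0.38, adjusted p = 0.589) or 4 h (0.80, adjusted p = 0.0546). The Cytip probes were close, with a median difference of 0.06 and a correlation of 0.987 over the 15 group means, against 0.833 for Tgm2. The 3 zeros of Cytip probe 15212 all lay in LPS groups, 2 of them at 4 h, and with zeros read as missing the mean Cytip ratio there was -1.77 rather than -1.53.

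**Figure D4:**
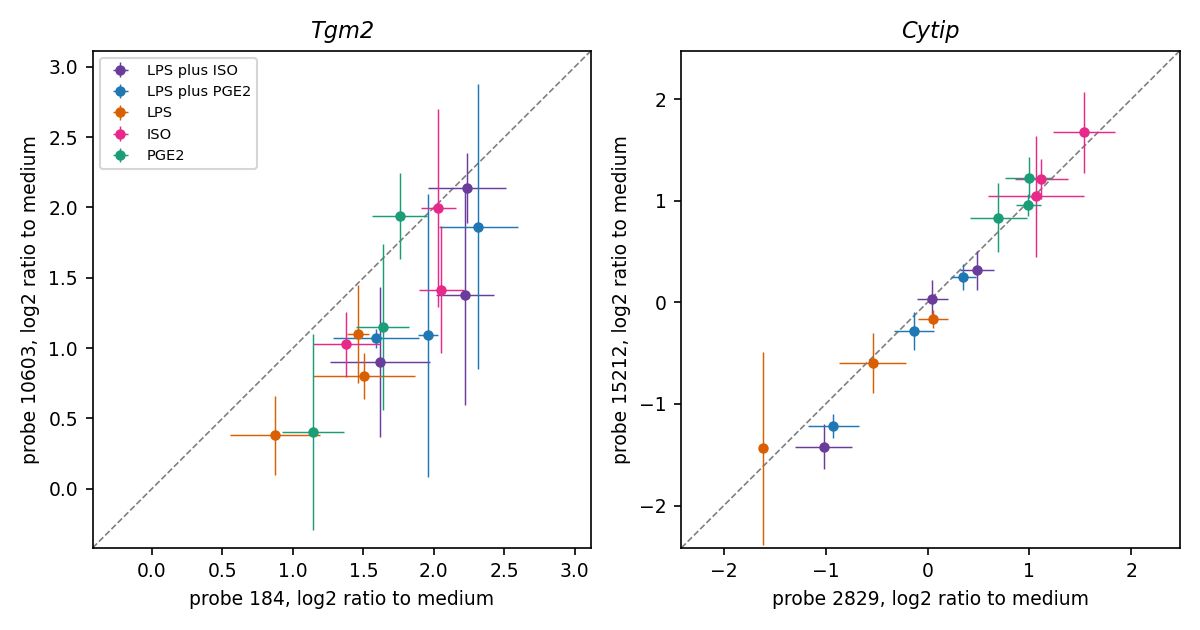
Mean log2 ratio over medium in each of the 15 groups by one probe (x) against the other (y), for Tgm2 (left) and Cytip (right); error bars are SD over sets and the dashed line is equality. Tgm2 points lie below the line in 14 of 15 groups, and Cytip points lie along it from about -1.6 to 1.7.

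No other measured transglutaminase was called higher with a single treatment. Of 6 measured relatives, 0 were called with ISO, with PGE2, or with LPS at 1 and 2 h, and at 4 h of LPS 2 were lower: F13a1, the coagulation transglutaminase, at -0.33 ± 0.17 and Tgm5, an epidermal form, at -0.32 ± 0.14. Over all genes, between 0.323% and 3.36% were called with ISO or PGE2, and with LPS at 4 h 14.3% were called higher and 16.4% lower. Counts in only 6 genes do not set the family apart from these shares. Of 18 measured partners and substrates of transglutaminase 2 at the cell surface and in the matrix, 1, 8 and 6 were higher and 0 lower with LPS at 1, 2 and 4 h, where 9.48%, 15.9% and 30.7% of all genes were called in either direction. At 4 h these included the proteoglycan Sdc4 (2.11 ± 0.28), the matrix proteases Mmp9 (2.08 ± 0.56) and Mmp14 (1.65 ± 0.45), and Tgfb1 (1.04 ± 0.17), a growth factor that transglutaminase 2 helps to activate (adjusted p from 3.12e-13 to 2.65e-09). With ISO or PGE2 alone 0 of the 18 were called at any time. A block for the set number within each time raised the share of all genes called to 19.7%, 24.8% and 38.9% with LPS, 5.13%, 5.36% and 11.2% with ISO and 4.14%, 1.71% and 5.45% with PGE2 at 1, 2 and 4 h, and it then called 1 of the 18 with ISO at 2 h (Adgrg1), and Plcd1 with ISO and with PGE2 at 4 h, all higher. With LPS the block within time called 3 of the 18 at 1 h, all higher. These gained genes, like those of the lists below, were named after their values were seen. The list's median at LPS 4 h was -0.002, against 0.000 over all genes, although 6 of the 18 were called higher there.

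Of 22 measured genes of apoptotic cell uptake, 3 were higher and 2 lower with LPS at 4 h, where 30.7% of all genes were called in either direction. Axl, a receptor kinase for bridged apoptotic cells, was at 1.87 ± 0.24, the scavenger receptor Msr1 at 0.91 ± 0.05 and Itgav, an integrin chain, at 0.83 ± 0.18, whereas its partner Itgb5 was at -0.62 ± 0.16. With zeros read as missing 8 of the 22 were called there, and with the block within time 10, of which 5 were higher and 5 lower. With ISO 1, 2 and 3 of the 22 were higher and 0 lower at 1, 2 and 4 h (0.903%, 1.71% and 3.36% of all genes called). These were Cd93 at all times (0.54, 0.59 and 0.73), the lipid exporter Abca1 at 2 h (1.49 ± 0.37), and at 4 h also the scavenger receptors Cd36 (0.52 ± 0.29) and Msr1 (0.36 ± 0.10). The call of Cd93 at 1 h was lost with zeros read as missing (adjusted p = 0.0551). Of 19 measured genes of retinoid and TGF-beta signalling, 3 were higher and 4 lower with LPS at 4 h, beside the same 30.7% of all genes. Among them were the retinal reductase Dhrs3 (1.88 ± 0.41) and the receptors Tgfbr1 (-1.04 ± 0.23) and Tgfbr2 (-0.78 ± 0.17). Smad7, an inhibitor of that pathway, was the 1 gene of the list called with ISO (0.80 ± 0.21) and with PGE2 (0.62 ± 0.05, n = 2), both at 1 h. With zeros read as missing Smad7 was not called with PGE2 (adjusted p = 0.202). The block within time added Tgfb3, lower with ISO at 2 h, and Rxrb and Smad4, higher with ISO and with PGE2 at 4 h.

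Among 15 measured genes of the cytohesin and ARF pathway in which Cytip acts, Cyth1, the gene of cytohesin-1 itself, was higher with ISO at 1 h (0.43 ± 0.19, adjusted p = 0.0278) and 2 h (0.60 ± 0.10, adjusted p = 0.000354). It was the 1 gene of the list called at those times, where 0.903% and 1.71% of all genes were called with ISO. The 1 h call was lost with zeros read as missing (adjusted p = 0.239), and the block within time also called Arf2, lower at 1 h. At 4 h 0 of the 15 were called with ISO or PGE2, against 2 with ISO under the set block (4.43% of all genes called), and 4 with ISO and 3 with PGE2 under the block within time. With LPS at 4 h (30.7% of all genes called) 1 was higher and 2 lower: Arf4 at 0.48 ± 0.14, Arf2 at -0.46 ± 0.21 and Arfgap3 at -0.28 ± 0.16. The block within time (38.9% called) gave 3 and 3. Of 10 measured beta2 integrin chains, ligands and activators, 5 were higher and 3 lower with LPS at 4 h, where 14.3% of all genes were called higher and 16.4% lower. The LFA-1 chain Itgal rose by 1.09 ± 0.16 and the adaptor Fyb by 1.05 ± 0.19, while Sipa1 (-0.91 ± 0.18) and Rassf5 (-0.59 ± 0.11), regulators of integrin activation through Rap, were lower. Fyb went the other way with ISO at 4 h (-0.54 ± 0.03, adjusted p = 6.02e-05) and with PGE2 at 4 h (-0.50 ± 0.09, adjusted p = 0.000328), so at 4 h its signs were opposite to those of Cytip in all 3 single treatments. Other genes of the list differed. Sipa1 (0.35 with ISO and 0.21 with PGE2) and Rassf5 (0.07 and 0.15) had the signs of Cytip, without a call for either ligand. Itgal and Itgb2 were above 0 in all 3. The ISO and PGE2 values of Cytip are those that chose it.

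**Figure D5:**
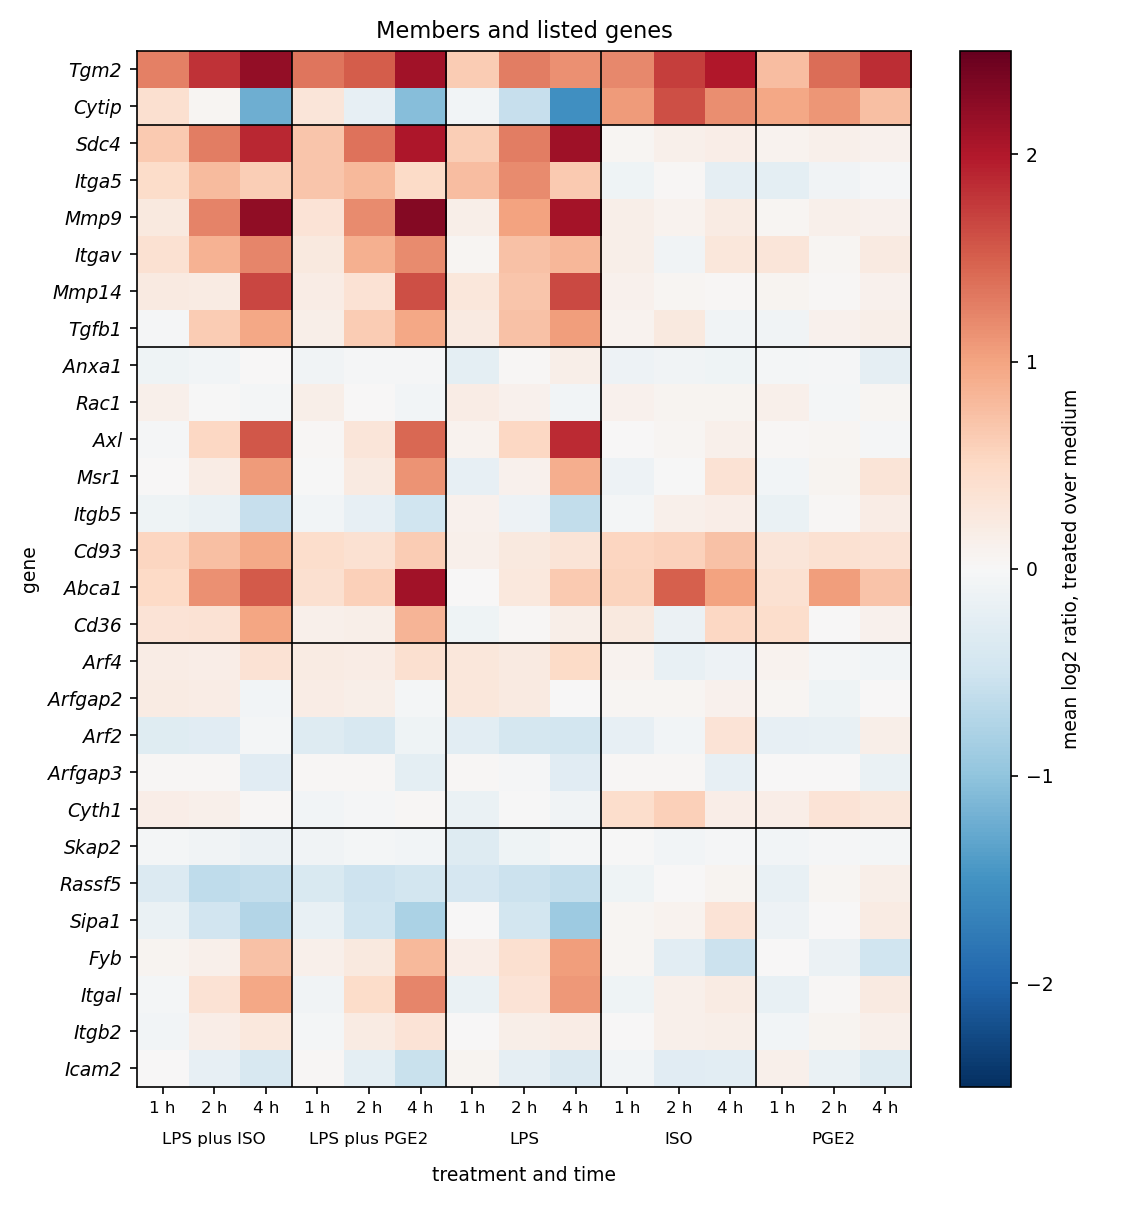
Mean log2 ratio over medium (colour, red higher and blue lower, scale from -2.5 to 2.5) of Tgm2, Cytip and the named listed genes (rows) in the 15 groups (columns, with hours). Lines separate the members, the partners of transglutaminase 2, apoptotic uptake, the cytohesin and ARF pathway and the beta2 integrin list; Sdc4 and Mmp9 reach over 1.8 in all 3 groups with LPS at 4 h and stay under 0.3 with ISO and PGE2 alone.

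Of 28 measured receptors, enzymes and targets of cyclic AMP signalling, 7 were higher and 2 lower with ISO at 1 h, 8 and 2 at 2 h, and 1 and 1 at 4 h. The shares of all genes called with ISO at these times were 0.903%, 1.71% and 3.36%. The orphan receptor Nr4a1 was at 2.43 ± 0.33 and the phosphodiesterase Pde4b at 1.78 ± 0.57 at 1 h. Rgs2, which dampens G protein signals, was lower with ISO at each time, at -1.41 ± 0.56, -1.78 ± 0.14 and -0.91 ± 0.09, and with PGE2 at -1.70 ± 0.06, -1.56 ± 0.36 and -0.93 ± 0.10. Its 4 h calls were lost with zeros read as missing (adjusted p = 0.113 with ISO and 0.197 with PGE2). With PGE2 4 were higher and 2 lower at 1 h, 2 and 2 at 2 h, and 1 and 2 at 4 h (0.323%, 0.456% and 1.14% of all genes called). At 4 h of ISO the set block called 6 of the 28, 4 of them higher. The block within time called 13, 11 and 9 with ISO and 12, 8 and 7 with PGE2 at 1, 2 and 4 h, so the size of the drop by 4 h depends on the block. The list's counts were lowest at 4 h with both ligands in the fit without a block and in that with the block within time. Set against LPS, 1 of the 28 was called in LPS plus ISO at 1 h: Nr4a1, by 2.42 (adjusted p = 0.0428, with 0.0190% of genes called).

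Among 15 measured markers of other cell types, 1 each was called with LPS at the 3 times, and Kdr, an endothelial receptor, was at 2.22 ± 0.56 at 4 h. Over all genes 9.48%, 15.9% and 30.7% were called with LPS at 1, 2 and 4 h. Of the 7 macrophage markers, 3 were higher and 1 lower at LPS 4 h, with Fcgr1 at 1.73 ± 0.30 and Csf1r at -0.68 ± 0.10. The part of these shifts in the Tgm2 and Cytip values was not tested.

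Across the 15 group means the ratios of Tgm2 and Cytip were not alike (Pearson r = -0.120, a description over means that share the medium design). The 6 genes whose pattern was most like that of Tgm2, among 8588 compared, were Hdac3 (r = 0.914), Gosr2 (0.904), Ercc2 (0.900), Ddb1 (0.892), Prxl2a (0.882) and Ap1g1 (0.877). Their means moved far less, with Hdac3 between -0.11 and 0.12 and Ercc2 between -0.69 and 0.57. Those most like Cytip were Dnaaf2 (0.974), Cnnm2 (0.973), Ing4 (0.972), Avpi1 (0.969), Chst14 (0.968) and Mbd4 (0.967). Cnnm2 had the widest rise with ISO among these, at 0.40, 1.01 and 0.73 at 1, 2 and 4 h, and was at -0.62 with LPS at 4 h. The other 5 were at or below 0.31 with ISO and between -1.18 and -0.76 with LPS at 4 h. Computed over the 44 sets instead, the first 6 shared 1 gene with the list for Tgm2 and 2 with that for Cytip.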

How the data were processed

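The authors deposited 1 table of log2 ratios per probe and array for 88 arrays; how images were read, normalized or filtered is not stated in labels or headers. Signs were turned by the dye labels so that ratios read treated over medium, and the direction rests on the LPS check given above. Of 16281 probes, 13738 had 1 gene symbol, 52 several and 2491 were unlisted; symbols were updated through Entrez for 13694, 478 probes at 0 throughout were left out, and probes were averaged to 10518 genes. Zeros were kept as 0. The 2 arrays of a set were averaged, and sets were fitted in limma 3.58.1 (R 4.3.3; lmFit and eBayes, a mean per group, all 15 groups, 29 residual degrees of freedom), with Benjamini-Hochberg adjustment over all genes and a threshold of 0.05. Precision is limited by how many arrays there are. The method was tested on simulated data in which sets varied independently and no values were set to 0. That test therefore does not cover zeros or deviations shared by sets. Same-numbered sets deviated together in all 9 comparisons between LPS groups (r from 0.197 to 0.766, other numbers at most 0.083) within a time and not between times (mean r -0.111 to 0.084), so the numbers were taken to pair the sets, a reading from the data. The main fit has no term for this pairing, which enters only the differences between same-numbered sets and the fits with a set block. The members, gene lists and tests were chosen with earlier results of these data known. Named genes are both members, the 6 most alike, and per list and comparison up to 4 called genes of largest ratio. Alternatives varied zeros, centring, scaling, dye, probe, gene filter, groups fitted and the set block; the block within time was chosen after seeing the data.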

Additional observations from a re-analysis of the deposited data

Results flagged for a closer look

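The ratio to medium differed between 1, 2 and 4 h in 5 time courses by limma's F test, which tests the difference between times itself. For Tgm2, 4 h minus 1 h was 0.93 (0.925) in LPS plus ISO (adjusted p = 0.0143) and 0.76 (0.758) in LPS plus PGE2 (adjusted p = 0.0482). Both Tgm2 calls were lost under several alternatives and on leaving out single sets, as given under the dependence on processing. For Cytip it was -1.47 (-1.469) in LPS alone (adjusted p = 1.2e-05), -1.62 (-1.622) in LPS plus ISO (adjusted p = 1.42e-06) and -1.37 (-1.369) in LPS plus PGE2 (adjusted p = 4.41e-05). The mean ratios of the 2 genes thus moved in opposite directions between 1 and 4 h in both combinations. Each time has medium cells of its own as control.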

How the results depend on the processing

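Of 462 recomputed member values, 420 kept direction and side of the 0.05 threshold; of 291 recomputed counts of listed genes that were above 0, 66 moved by over 1.5 times, and of 429 that were 0, 37 rose above it. For the members the set block changed no call other than those printed here, and causes were not tested unless named. Turning all signs leaves 0 of 18 LPS arrays with the check genes above 0.

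With the replicate block, overall or within time, Tgm2 passed for LPS plus ISO against LPS at 4 h (1.034), LPS plus PGE2 against LPS at 4 h (0.936) and the LPS course (0.525). Zeros read as missing made calls of Tgm2 in LPS plus PGE2 against LPS at 4 h (1.029) and the LPS course (0.667), and turned LPS plus ISO against LPS plus PGE2 at 4 h (-0.138).

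With only the compared groups fitted, which leaves few sets to estimate spread, values stayed and calls were lost for Tgm2 in LPS at 1 h (0.628), LPS plus ISO at 1 h (1.261) and 2 h (1.797), LPS plus PGE2 at 1 h (1.331) and 2 h (1.524), and the courses of LPS plus ISO (0.925) and LPS plus PGE2 (0.758); for Cytip in LPS at 2 h (-0.567) and 4 h (-1.526) and LPS plus ISO at 4 h (-1.220). The LPS course of Tgm2 (0.525) was gained.

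Scaling arrays within groups ended Tgm2 calls in LPS at 1 h (0.653) and the courses of LPS plus ISO (0.831) and LPS plus PGE2 (0.786), and turned LPS plus ISO against LPS plus PGE2 at 1 h (0.003). With treated RNA in Cy3 only, Tgm2 was not called in LPS at 1 h (0.476) or the courses of LPS plus ISO (0.851) and LPS plus PGE2 (0.825), and LPS plus ISO against LPS plus PGE2 at 4 h turned (-0.069). With Cy5 only, LPS plus ISO against LPS at 4 h passed (1.311), the LPS plus PGE2 course did not (0.691), and Cytip in LPS at 1 h turned (0.022).

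Probe 10603 alone lost Tgm2 in LPS at 1 h (0.380) and 4 h (0.801), LPS plus ISO at 1 h (0.901) and the courses of LPS plus ISO (1.236) and LPS plus PGE2 (0.793), and turned LPS plus PGE2 against LPS at 2 h (-0.010). Probe 184 alone gained the LPS course (0.629) and turned LPS plus ISO against LPS plus PGE2 at 1 h (0.029) and 4 h (-0.079). Probe 2829 alone turned Cytip in LPS at 1 h (0.053) and gained LPS plus ISO at 1 h (0.490).

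Leaving out 1 set gave Tgm2 in LPS at 1 h 0.526 to 0.728 (lost without set 1 or 3), LPS plus ISO against LPS plus PGE2 -0.217 to 0.026 at 1 h, -0.019 to 0.495 at 2 h and -0.112 to 0.235 at 4 h, the LPS plus ISO course 0.829 to 1.073 (lost without set 1 or 2 at 1 h) and the LPS plus PGE2 course 0.620 to 0.967 (lost without any 1 h set, or set 2 or 3 at 4 h). For Cytip it gave LPS at 1 h -0.104 to 0.004, LPS at 2 h -0.687 to -0.450 (lost without set 1 or 3) and LPS plus ISO at 2 h -0.032 to 0.133. The number of sets, and zeros on the second probe of each gene, limit all of these.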
